A study of Homo sapiens with 8 samples.

Results

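Potassium channel genes are described here in wild-type HAP1 cells and in a BCDIN3D knockout clone. They were taken as all symbols of the form KCN, then letters, then a number at the end, with 20 or more reads summed over the 4 RNA-seq libraries. Of 57996 gene symbols 94 had this form and 48 reached the 20 counts. HAP1 is an adherent, near-haploid human line of chronic myelogenous leukaemia origin, and BCDIN3D encodes a methyltransferase that acts on the 5′ end of histidine tRNA. The 2 wild-type libraries were compared with 2 libraries of BCDIN3D knockout clone 11, the only knockout clone. An effect of the knockout and a difference between clones therefore cannot be told apart. Both groups grew for 48 h in the same medium with 10% serum, and replicates 1 and 2 of each group are dated 6 and 9 May in the labels.

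Potassium channels let potassium leave or enter cells along its gradient and so set the resting membrane potential and shorten action potentials. Voltage-gated subunits open on depolarisation, calcium-activated ones read intracellular calcium, inward rectifiers and 2-pore channels carry current near rest, and accessory subunits change the gating or traffic of the pores. In proliferating and cancer cells such channels are known for roles in cell volume, membrane potential and cycle progression. Only transcripts were measured here, and a transcript level is not a current.

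Libraries held 20065041 to 24415272 counts. BCDIN3D itself stood at 7.40 and 4.90 CPM (read counts scaled to a common library size) in wild-type replicates 1 and 2, against 1.56 and 2.71 CPM in knockout. This is a log2 fold change, knockout over wild-type, of -1.52 ± 0.24 (SE, n = 2 libraries a group), with an adjusted p of 2.06e-05 by edgeR's quasi-likelihood test with Benjamini-Hochberg adjustment. BCDIN3D reads thus remained in both knockout libraries, and whether a functional product was lost was not tested. In such bulk samples, fewer cells with a transcript and less of it per cell cannot be told apart. Of 7 markers fixed for HAP1 and its leukaemic origin 6 were tested, with KIT lower (-3.30 ± 0.23) and TAL1 higher (0.32 ± 0.08). Of 9 blood markers 0 were tested, and their summed level was 0.503 to 1.46 CPM, with HBG1 at 0 in all libraries. Neuron markers summed to 16.8 to 22.1 CPM, with SYT1 lower (-1.32 ± 0.29) and STMN2 at 2 or fewer counts per library. Heart and muscle markers summed to 1.84 to 2.997 CPM, fibroblast markers to 7.66 to 10.1 CPM with DCN and LUM at 0, and pancreatic islet markers to at most 0.0405 CPM. Epithelial markers summed to 69.2 and 77.8 CPM in wild-type and 50.3 and 58.2 CPM in knockout, with EPCAM, KRT8 and KRT18 lower. EPCAM passed the filter on low counts only through wild-type. Their part in the channel results was not tested.

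Promoter sequences of 5 genes are shown because 4 of them belong to transcripts that fell in the clone and 1, KCND2, to the largest rise among the channel genes. Each is the 300 bases of RefSeq's GRCh38.p14 table, 250 before and 50 after the start, read 5′ to 3′ on the gene's strand, with every CG dinucleotide in capitals. They lie at chr1:233613856-233614155 (plus strand, KCNK1), chr11:74467500-74467799 (minus strand, KCNE3), chr5:114361820-114362119 (plus strand, KCNN2), chr6:72621814-72622113 (plus strand, KCNQ5) and chr7:120272925-120273224 (plus strand, KCND2).
KCNK1: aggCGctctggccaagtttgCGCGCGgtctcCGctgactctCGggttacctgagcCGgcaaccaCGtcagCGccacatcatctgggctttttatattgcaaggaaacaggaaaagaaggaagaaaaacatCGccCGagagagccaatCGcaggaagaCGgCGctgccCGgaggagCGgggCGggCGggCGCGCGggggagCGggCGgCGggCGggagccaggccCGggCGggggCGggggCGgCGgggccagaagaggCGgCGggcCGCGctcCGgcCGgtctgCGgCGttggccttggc
KCNE3: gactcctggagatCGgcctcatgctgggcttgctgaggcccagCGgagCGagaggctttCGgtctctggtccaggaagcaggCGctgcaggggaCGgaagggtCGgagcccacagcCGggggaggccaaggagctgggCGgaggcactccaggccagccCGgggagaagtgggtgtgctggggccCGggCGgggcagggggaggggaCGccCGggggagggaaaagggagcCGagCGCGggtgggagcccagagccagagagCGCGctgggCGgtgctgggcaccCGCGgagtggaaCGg
KCNN2: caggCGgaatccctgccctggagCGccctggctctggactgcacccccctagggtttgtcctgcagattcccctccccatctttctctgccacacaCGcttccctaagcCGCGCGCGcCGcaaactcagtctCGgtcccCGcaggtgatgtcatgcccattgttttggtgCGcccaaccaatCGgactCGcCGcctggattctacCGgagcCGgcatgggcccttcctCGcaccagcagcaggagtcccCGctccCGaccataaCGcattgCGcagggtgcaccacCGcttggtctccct
KCNQ5: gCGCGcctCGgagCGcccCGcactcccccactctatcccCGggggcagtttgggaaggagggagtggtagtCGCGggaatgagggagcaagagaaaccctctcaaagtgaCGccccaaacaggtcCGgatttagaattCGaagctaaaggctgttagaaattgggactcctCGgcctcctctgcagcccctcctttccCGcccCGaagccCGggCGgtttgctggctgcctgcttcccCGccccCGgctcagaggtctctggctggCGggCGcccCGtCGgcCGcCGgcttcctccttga
KCND2: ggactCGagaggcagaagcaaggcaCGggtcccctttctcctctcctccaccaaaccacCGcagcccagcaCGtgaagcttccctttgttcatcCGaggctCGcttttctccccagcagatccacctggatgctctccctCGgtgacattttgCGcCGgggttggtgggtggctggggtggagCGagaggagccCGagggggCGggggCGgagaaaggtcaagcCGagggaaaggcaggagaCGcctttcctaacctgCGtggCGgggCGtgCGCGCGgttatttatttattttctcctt
The KCNN2 and KCND2 windows lie inside the genes' RefSeq spans, so their starts are not the outermost ones. CG dinucleotides numbered 38 in KCNK1, 23 in KCNE3, 22 in KCNN2, 24 in KCNQ5 and 21 in KCND2. Of the 48 genes 36 had an entry, with 1 (KCNJ13) to 53 (KCND3 and KCNIP3) and a median of 24.5, against a median of 26 over 11057 promoters of tested genes. The GC box GGGCGG, read on both strands as GGGCGG or CCGCCC, was in KCNK1, KCNE3, KCNQ5 and KCND2 and had no match in KCNN2. It was in 24 of the 36 (66.7%), in 70.3% of promoters of tested genes and in 44.6% of all 27305 promoters. The genes that fell and those that missed the threshold overlapped in CG number, which are counts of letters and not evidence of a factor or of methylation.

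Of the 48 genes 40 passed the filter on low counts and were tested. Of these, 5 were higher and 6 lower in knockout at an adjusted p under 0.05. Over all 16233 tested genes 3.06% were higher and 3.5% lower, 6.56% in all. The shares among the tested channel genes were 12.5% higher and 15.0% lower. Of the 6 that fell, 5 passed the filter on low counts through the wild-type libraries alone, so they had to differ to be tested, and their number is a description. Every fall was at least 4-fold by the fitted fold change or by counts, and every rise was under 2-fold. The 5 that passed through wild-type alone had 33 to 77 counts over the 4 libraries, so only a large fall could be called. The genes that rose had 467 or more counts, so this contrast in size is a description too. Among all tested genes 1.13% were lower by 4-fold or more and 0.111% higher by as much. The median log2 fold change of the 40 was 0.10 (also with KCNE3, the one with 0 counts in knockout, at its bound), and that of all tested genes was 0.0017. In 14 of the 40 both knockout libraries lay above both wild-type libraries and in 7 below, and over all tested genes the shares were 23.5% and 21.8%. Without wild-type replicate 1 only KCND2 remained among those called higher, and without knockout replicate 2 there were 3. Over all genes the calls higher were then 240 and 301, against 497 with all libraries. DESeq2 called 1 higher (KCND2) and 3 lower (KCNK1, KCNE3 and KCNN2), against 1.3% and 1.54% of the genes it tested, 2.84% in all. With the date as a replicate block 6 were higher and 6 lower, against 4.72% and 4.83% of all tested genes, 9.55% in all.

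**Figure D1:**
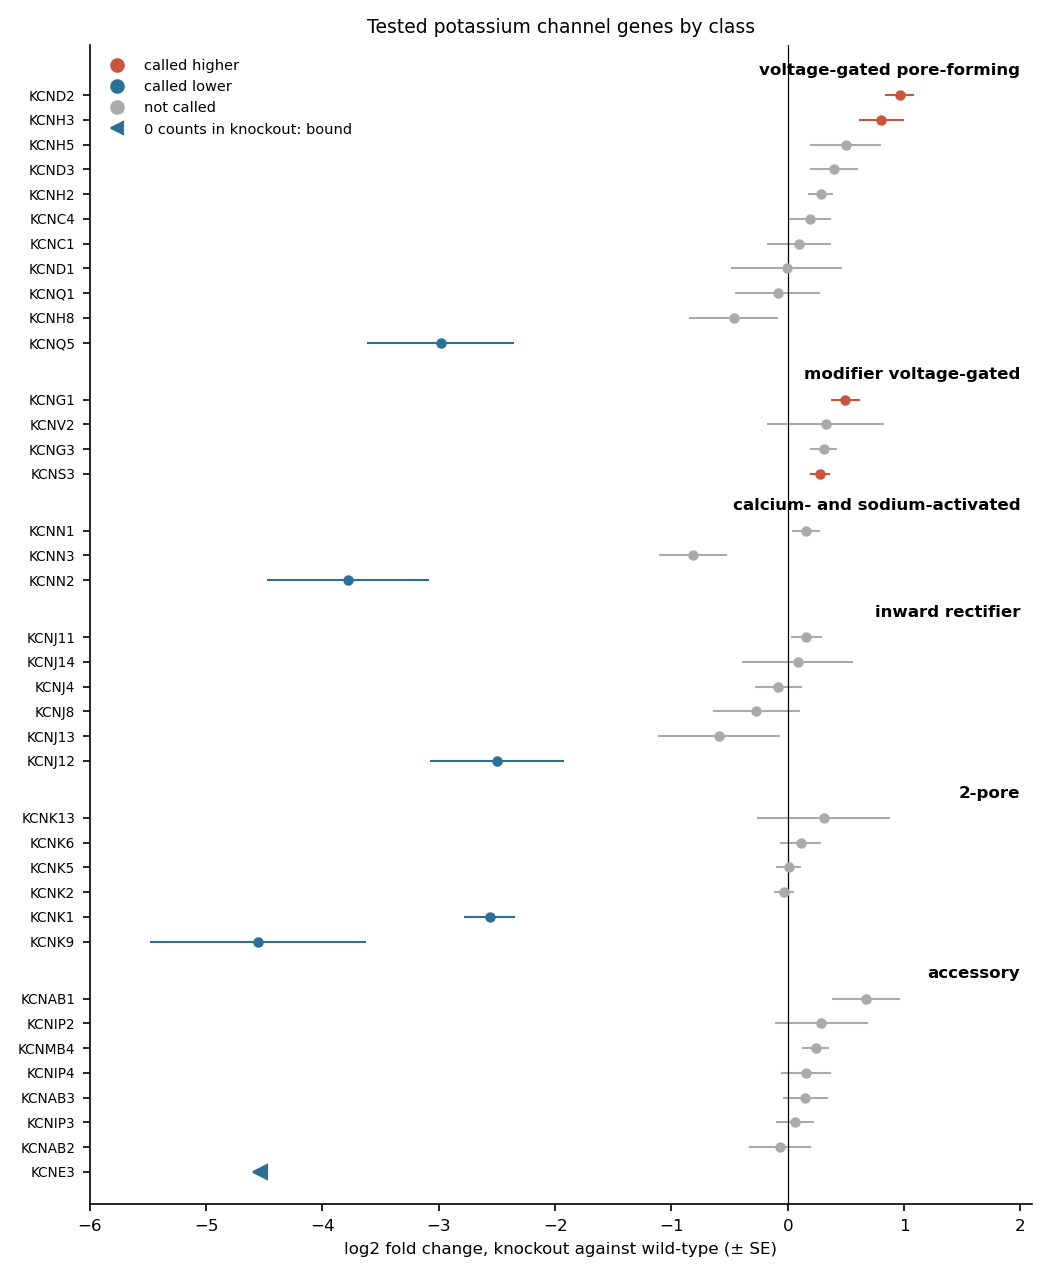
Log2 fold change of knockout against wild-type with its standard error for 38 of the tested potassium channel genes, ordered within 6 classes. The 6 falls lie at -2.50 or lower, the 4 rises drawn lie between 0.28 and 0.96, and KCNE3 is drawn as an arrow at the bound set by 3 counts.

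Voltage-gated pore-forming genes held 3 of the 5 rises and 1 fall among 13 tested. KCND2 encodes the pore of a rapidly inactivating current of neuronal dendrites. It stood at 10.4 and 12.7 CPM in wild-type and at 23.4 and 21.9 CPM in knockout. Both knockout libraries were well above both wild-type libraries, and the log2 fold change was 0.96 ± 0.12 (1.95-fold, adjusted p = 4.01e-08). The call held in each of the 10 alternative fits. The gene lies on chromosome 7 (120272908 to 120750337).

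KCNH3, a voltage-gated channel of the ether-a-go-go family found mainly in brain, gave 3.32 and 4.58 CPM in wild-type and 6.34 and 7.59 CPM in knockout. The groups did not overlap, and the log2 fold change was 0.81 ± 0.19 (1.75-fold, adjusted p = 0.00406). The call was lost with DESeq2 (adjusted p = 0.173), without wild-type replicate 1 (adjusted p = 0.147) and without knockout replicate 2 (adjusted p = 0.110). KCNH3 (chromosome 12, 49539030 to 49558337) ends 277.7 kb before BCDIN3D, on the same chromosome. Of the 5 tested genes that lie between them 0 were called. MCRS1 overlaps only the end of KCNH3 in the RefSeq table, from 49558299 to 49558337, and gave 11904 counts. As the strand setting of the counting is not given in the sources used here, reads of the overlap may belong to either gene. MCRS1 had a log2 fold change of 0.07 ± 0.06.

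KCNQ5, a subunit of the slow M-current that restrains repetitive firing in neurons, fell. It gave 15 and 31 counts in wild-type against 4 and 1 in knockout, that is 0.721 and 1.26 CPM against 0.189 and 0.0503 CPM. Both knockout libraries were below the lower wild-type library. The log2 fold change was -2.98 ± 0.63 (7.91-fold lower, adjusted p = 0.000843). Its size varied with the library left out. It was -3.31 without wild-type replicate 1 and -2.51 without wild-type replicate 2. Without knockout replicate 1 it was -4.17 and without knockout replicate 2 -2.37. KCNQ5 was tested in 9 of the 10 alternative fits, not with a minimum count of 30. It missed the threshold with DESeq2 (adjusted p = 0.121), without wild-type replicate 2 (adjusted p = 0.156) and without knockout replicate 2 (adjusted p = 0.0543).

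Its relative KCNQ1, which carries slow repolarising currents in heart and epithelia, had a log2 fold change of -0.09 ± 0.36 and missed the threshold. KCNH2, the channel behind the rapid repolarising current of heart muscle, is also known as HERG. It stood at 19.3 and 21.9 CPM in wild-type and at 23.7 and 26.5 CPM in knockout. The groups did not overlap, but its log2 fold change of 0.28 ± 0.11 missed the threshold (adjusted p = 0.117). With the date as a block it passed (blocked adjusted p = 0.0356), as it did without knockout replicate 1 (adjusted p = 0.0486). KCND3, which like KCND2 carries a transient current, had 0.39 ± 0.21, and KCND1 had -0.0094 ± 0.48. The Shaw-type genes KCNC1 and KCNC4, whose channels serve fast-spiking cells, had 0.09 ± 0.28 and 0.19 ± 0.18. KCNH5 and KCNH8 had 0.50 ± 0.31 and -0.46 ± 0.38. Of 8 genes of the Shaker family, KCNA, 0 were among the 48, and the one with most counts, KCNA4, had 9 over the 4 libraries.

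Modifier subunits (KCNF, KCNG, KCNS and KCNV) make no channel alone and join other voltage-gated pores, whose gating they change. KCNG1 rose from 12.02 and 12.7 CPM to 17.5 and 17.4 CPM, a log2 fold change of 0.50 ± 0.12 (1.41-fold, adjusted p = 0.00588). Both knockout libraries exceeded both wild-type libraries, but the call was lost with DESeq2 (adjusted p = 0.135) and without wild-type replicate 1 (adjusted p = 0.0871). KCNS3 gave 35.5 and 41.1 CPM in wild-type and 45.5 and 47.4 CPM in knockout. Its log2 fold change of 0.28 ± 0.09 (1.21-fold) lay just inside the threshold (adjusted p = 0.0460) and outside it in 7 of 10 alternative fits, with adjusted p up to 0.650. KCNG3, at 15.5 and 14.4 CPM in wild-type and 18.9 and 18.2 CPM in knockout, also had groups that did not overlap but missed the threshold (0.31 ± 0.12, adjusted p = 0.128). KCNV2 had 0.32 ± 0.50.

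**Figure D2:**
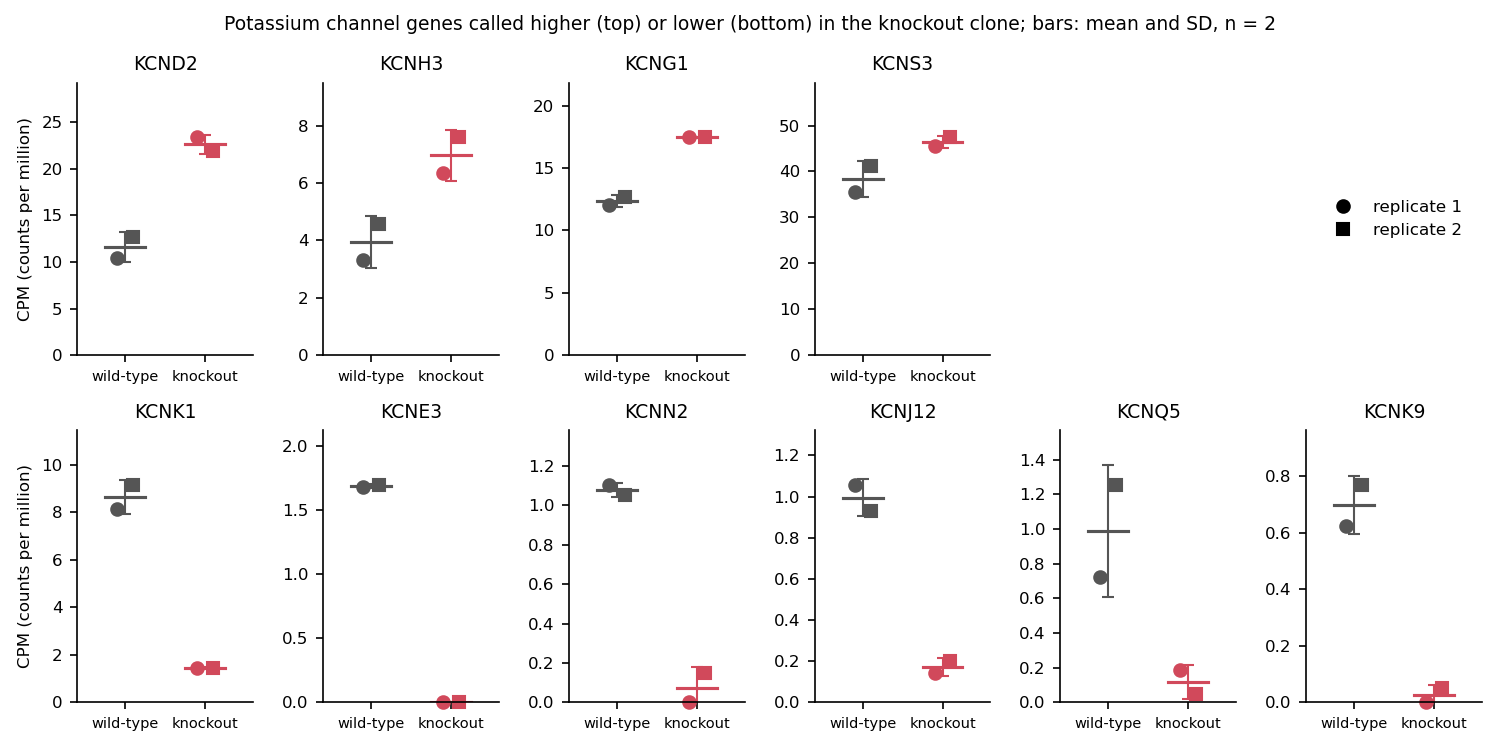
CPM in each of the 4 libraries for 10 called genes, the rises in the upper row and the falls in the lower row, with the mean and SD (n = 2) of each group and axes that start at 0. No pair of groups overlaps, and KCNE3 is at 0 in both knockout libraries.

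The 2-pore genes, whose products are leak channels of the resting membrane, held 2 falls among 6 tested. KCNK1, which encodes a weakly inward-rectifying leak channel, gave 169 and 226 counts in wild-type against 31 and 29 in knockout. In CPM these were 8.12 and 9.15 against 1.47 and 1.46. The knockout libraries were close to each other and far below the wild-type range, with a log2 fold change of -2.56 ± 0.22 (5.90-fold lower, adjusted p = 5.30e-13). It was called in each of the 10 alternative fits, between -2.64 and -2.47. Among the genes that fell it alone passed the filter through both groups, and it alone of them had 100 or more counts. KCNK1 lies on chromosome 1 (233614106 to 233672514).

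KCNK9 encodes an acid-sensitive leak channel and is imprinted, with the maternal copy active in brain. It gave 13 and 19 counts in wild-type against 0 and 1 in knockout. The ratio of counts, scaled for depth, was 28.9 (exact 95% interval 4.82 to 1175), and the adjusted p was 0.000466. KCNK9 was tested in 8 of the 10 alternative fits, not with a minimum count of 30 or without wild-type replicate 2. With DESeq2 the call was lost (adjusted p = 0.149). Without knockout replicate 1 the fitted log2 fold change was -3.66, against -4.55 with all libraries. The 2-pore genes with most counts, KCNK2 and KCNK5, overlapped between groups. KCNK2, which encodes a channel opened by stretch and lipids, had 42.2 and 39.8 CPM in wild-type and 40.9 and 39.1 CPM in knockout (-0.03 ± 0.09). KCNK5, opened by alkaline pH outside the cell, had 21.9 and 21.0 CPM in wild-type and 21.5 and 21.6 CPM in knockout (0.0089 ± 0.11). KCNK6 had 0.11 ± 0.18 and KCNK13 0.31 ± 0.57. Differences between the fold changes of these relatives were not tested.

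Of the calcium- and sodium-activated genes 3 were tested, all of the small-conductance family KCNN, whose channels open when calmodulin binds calcium. KCNN2 gave 23 and 26 counts in wild-type against 0 and 3 in knockout. The ratio of counts was 14.7 (exact 95% interval 4.75 to 73.9), with an adjusted p of 9.79e-05. The call held in the 9 alternative fits that tested it, with DESeq2 at an adjusted p of 0.0396. Without knockout replicate 1 the fitted log2 fold change was -2.79, against -3.78 with all libraries. KCNN3 gave 50 and 68 counts in wild-type against 24 and 36 in knockout, and both knockout libraries were below wild-type. Its log2 fold change was -0.82 ± 0.29 and missed the threshold (adjusted p = 0.0900). KCNN1 stood at 14.3 and 17.0 CPM in wild-type and 16.6 and 18.3 CPM in knockout, which overlap (0.15 ± 0.12). KCNMA1, the pore of the large-conductance calcium-activated channel, had 7 counts over the 4 libraries.

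Inward rectifiers held 1 fall among 6 tested. KCNJ12 encodes a strong rectifier known from heart and skeletal muscle, and gave 22 and 23 counts in wild-type against 3 and 4 in knockout. That was 1.06 and 0.931 CPM against 0.142 and 0.201 CPM, a log2 fold change of -2.50 ± 0.57 (5.65-fold lower, adjusted p = 0.00230). It was tested in 9 of the 10 alternative fits, not with a minimum count of 30. The call was lost with DESeq2 (adjusted p = 0.186) and without wild-type replicate 1 (log2 fold change -2.41). KCNJ12 has a near-identical copy, KCNJ18, which had 2 counts, so reads may be split between them and the value is uncertain. KCNJ11, the pore of the ATP-sensitive channel, had 11.97 and 12.4 CPM in wild-type and 13.4 and 13.9 CPM in knockout (0.16 ± 0.13). KCNJ4 overlapped between groups (-0.08 ± 0.20). KCNJ8, KCNJ13 and KCNJ14 had -0.27 ± 0.37, -0.59 ± 0.52 and 0.09 ± 0.48.

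Accessory subunits held 1 fall among 8 tested. KCNE3 encodes a single-pass membrane protein that holds KCNQ1 channels open in epithelia. It had 35 and 42 counts in wild-type, that is 1.68 and 1.70 CPM, and 0 in both knockout libraries. Against 3 counts over the knockout group it was at least 23.1-fold lower (adjusted p = 8.44e-09), and the call held in each of the 10 alternative fits. Its partner KCNQ1 gave 24 and 34 counts in wild-type against 18 and 31 in knockout. KCNE3 lies on chromosome 11 (74454841 to 74467549).

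Of the other accessory genes, KCNMB4, a beta subunit of the large-conductance channel, had 17.5 and 16.8 CPM in wild-type and 21.0 and 19.4 CPM in knockout. These groups did not overlap, yet the log2 fold change of 0.24 ± 0.11 missed the threshold (adjusted p = 0.262). The calcium-binding partners of KCND pores, KCNIP2, KCNIP3 and KCNIP4, had 0.29 ± 0.40, 0.06 ± 0.17 and 0.16 ± 0.22. The beta subunits of Shaker channels, KCNAB1, KCNAB2 and KCNAB3, had 0.67 ± 0.29 (adjusted p = 0.2005), -0.07 ± 0.27 and 0.15 ± 0.20. In all, 29 tested genes missed the threshold, with log2 fold changes between -0.82 and 0.67 and 16 of them within 0.2 of 0. A missed threshold does not show that a gene was unchanged, since their standard errors ran from 0.09 to 0.57.

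The 8 genes that did not pass the filter on low counts were KCNE1, KCNF1, KCNG2, KCNH6, KCNJ5, KCNK12, KCNK15 and KCNT1. Each had 34 or fewer counts over the 4 libraries. The filter asked for about 0.47 CPM in 2 or more libraries, not for a total. KCNK9, with 33 counts almost all in wild-type, was tested. KCNE1, also with 33 but spread over both groups, was not. Both knockout libraries were below wild-type in KCNK12 (9 and 8 counts against 3 and 3) and KCNH6 (7 and 9 against 5 and 3), and above it in KCNF1. The other 5 overlapped. Over all tested genes both knockout libraries lay above wild-type in 23.5% and below it in 21.8%. Just inside the limit of 20 counts lay KCNJ5 and KCNK12 with 23 each, and just outside it KCNE2 with 18 and KCNH4 and KCNJ10 with 17 each.

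**Figure D3:**
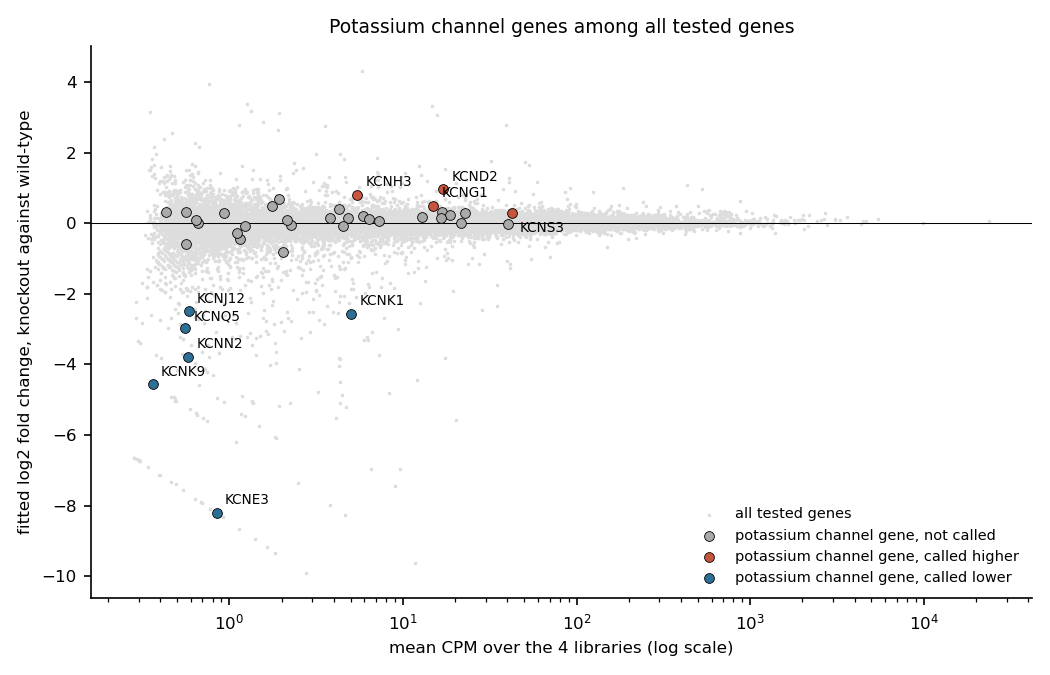
Fitted log2 fold change against mean CPM over the 4 libraries (log scale) for all 16233 tested genes in light grey, with 38 tested potassium channel genes as larger points. Of the 6 falls 5 lie below 1 CPM, where all genes scatter most, and KCNK1 lies above it. The fitted value of KCNE3 depends on the prior count, as it has 0 counts in knockout.

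Summed over each class, the voltage-gated pore-forming genes gave 87.4 and 103.9 CPM in wild-type and 122.9 and 129.3 CPM in knockout. Modifier subunits gave 64.2 and 69.6 CPM against 83.2 and 84.4 CPM. Both sums were above wild-type in both knockout libraries, a log2 ratio of the means of 0.40 and 0.33. The 2-pore genes gave 79.0 and 79.2 CPM in wild-type and 71.4 and 69.8 CPM in knockout (-0.16), and without KCNK2 the log2 ratio was -0.31. KCNK1 made up most of this difference, with a mean of 8.64 CPM in wild-type and 1.46 CPM in knockout. Calcium- and sodium-activated genes overlapped between groups, at 18.1 and 21.1 CPM against 17.8 and 20.7 CPM. KCNN1 made up most of that sum, and without it the log2 ratio was -1.15. Inward rectifiers overlapped too, at 20.5 and 20.7 CPM against 19.96 and 21.4 CPM. Accessory subunits gave 38.8 and 39.6 CPM in wild-type and 43.8 and 41.6 CPM in knockout. With 2 libraries a group, an exact two-sided permutation test cannot go below 0.33, so these sums are given without a test.

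**Figure D4:**
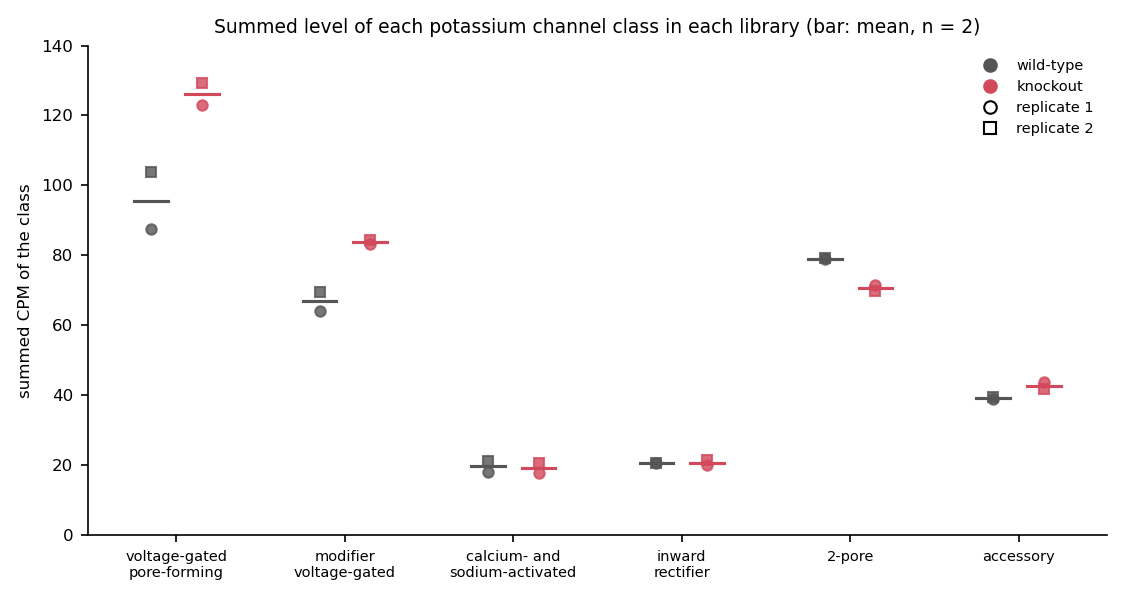
Summed CPM of the potassium channel genes in each class, for each library, with the group mean as a bar (n = 2). Knockout lies above wild-type for the voltage-gated pore-forming, modifier and accessory classes and below it for the 2-pore class, where KCNK1 makes up most of the difference.

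Neighbouring genes were compared for 10 called genes, taking the 5 nearest tested genes on each side by RefSeq position. Around KCNE3, KCNN2 and KCNQ5 0 of 10 neighbours were called, and their median log2 fold changes were -0.04, -0.05 and -0.07. Around KCNK1 the 10 neighbours all had negative values, from -0.87 to -0.06, with 1 called, MLK4 (-0.28 ± 0.09). None of these came near the -2.56 of KCNK1. Around KCNK9 0 neighbours fell and 2 rose: TRAPPC9, whose start lies 126.9 kb away (0.45 ± 0.11), and CHRAC1 (0.90 ± 0.09). KCNJ12 had 1 lower neighbour, NOS2 (-1.001 ± 0.26), at a distance of 6380 kb.

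Around the genes that rose the neighbours were mixed. KCND2 had 2 lower neighbours, ST7 (-0.34 ± 0.11) and CPED1 (-1.11 ± 0.35), and 0 higher. KCNH3 had 1 higher neighbour, DNAJC22 (0.64 ± 0.15), with SPATS2 between them at 0.11 ± 0.09. KCNG1 had ATP9A higher (0.34 ± 0.07) and ZNF217 lower (-0.28 ± 0.08). KCNS3 had 1 lower, VSNL1 (-0.99 ± 0.29). In none of these 10 regions did most neighbours share the channel gene's call. The regions spanned 469.8 kb around KCNH3 to 7765 kb around KCNK9, so neighbours were not always close. As 3.06% of all tested genes were called higher and 3.5% lower, such a majority would be rare in any region.

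**Figure D5:**
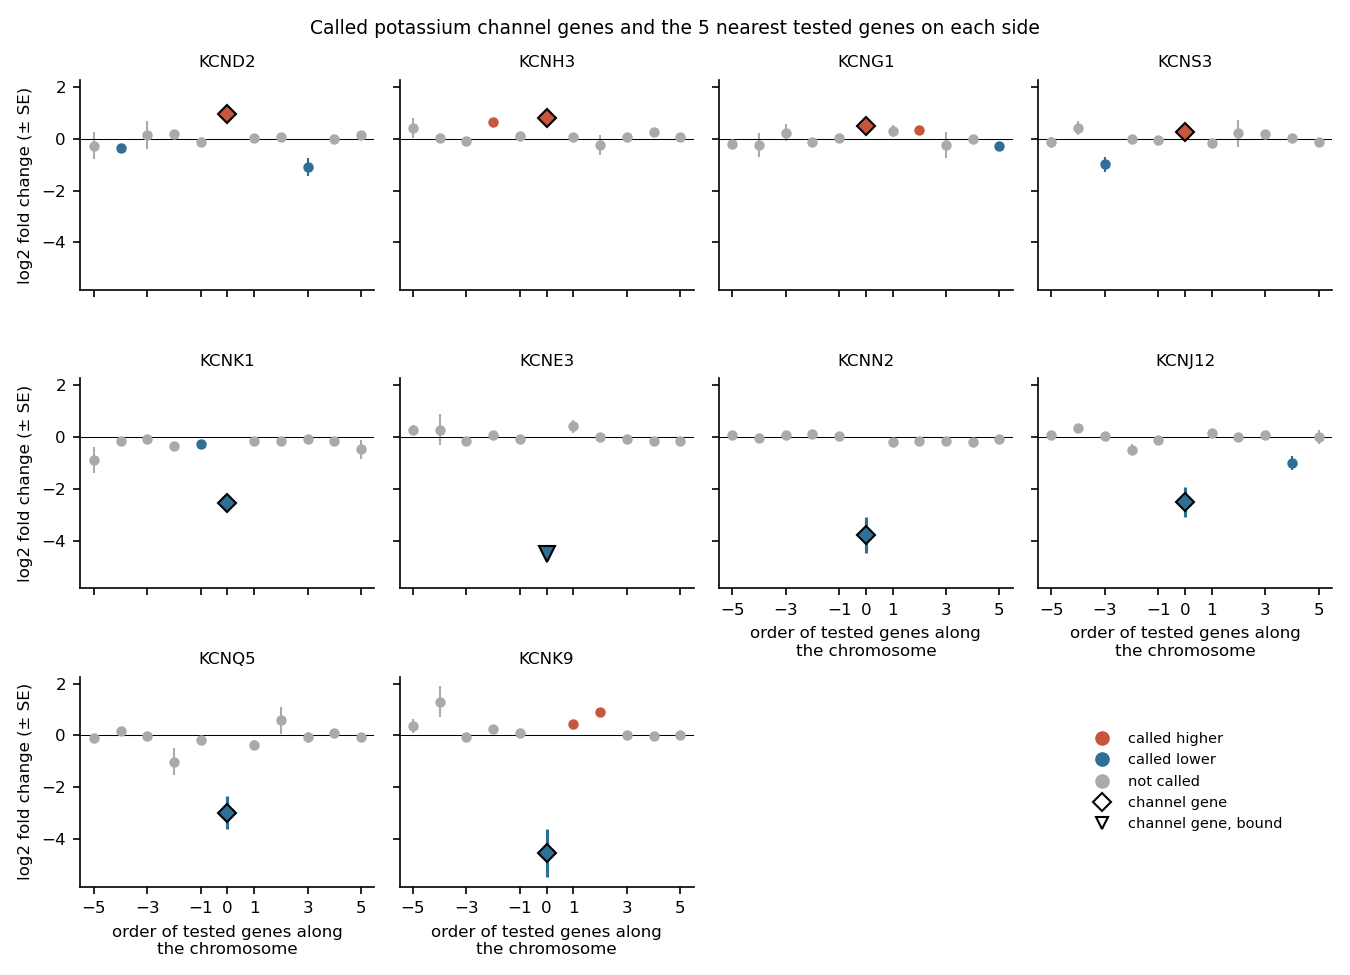
Log2 fold change with its standard error for 10 called potassium channel genes (diamond, or triangle at the bound for KCNE3) and the 5 nearest tested genes on each side, in their order along the chromosome. The neighbours lie mostly near 0, with 0 to 2 of 10 called in each panel.

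Genes that work with these channels were read from fixed lists. Of 17 partners outside the KCN names 9 were tested, with 1 higher and 0 lower and a median log2 fold change of 0.16. Over all tested genes 3.06% were higher and 3.5% lower. The partner that was higher was DPP10, which encodes a membrane protein that binds KCND pores. It had 491 and 698 counts in wild-type against 701 and 736 in knockout (0.43 ± 0.10, adjusted p = 0.00242). DESeq2 called 0 of the partners. Knockout was above wild-type in both libraries for KCND2 and for DPP10 alike, as in 23.5% of all tested genes. Of the other KCND partners, KCNIP2 lay above too, and KCNIP3 and KCNIP4 overlapped between groups. A joint change was not tested. ABCC8, the sulfonylurea receptor that pairs with KCNJ11, had -0.76 ± 0.36 (adjusted p = 0.267). Of 17 ion pump and cation-chloride cotransporter genes 13 were tested and 0 were called by edgeR, with 1 at an unadjusted p under 0.05, and 0 by DESeq2. Their median was -0.02, and those of smallest p were ATP1B3 (-0.14 ± 0.07) and SLC12A3 (0.44 ± 0.24). Of 25 KCN symbols outside the pattern 1 was tested, KCNRG (0.22 ± 0.51). KCNQ1OT1, the imprinted noncoding RNA antisense to KCNQ1, gave 9 and 10 counts in wild-type against 3 and 2 in knockout.

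Other voltage-gated cation channel genes gave 2 higher and 0 lower of 7 sodium channel genes tested, and 0 higher and 1 lower of 9 calcium channel genes. The shares over all tested genes were 3.06% higher and 3.5% lower. SCN9A, a sodium channel of sensory neurons, gave 491 and 686 counts in wild-type against 981 and 1072 in knockout (0.96 ± 0.10, adjusted p = 1.08e-10). The beta subunit gene SCN2B had 6 and 5 counts against 22 and 23 (2.15 ± 0.52, adjusted p = 0.00374), and passed the filter only through knockout, so it had to be higher to be tested. CACNA1H, a low-voltage-activated calcium channel, had 212 and 331 counts against 155 and 162 (-0.62 ± 0.15, adjusted p = 0.00583). DESeq2 called 1 of the sodium channel genes, SCN9A, and 0 of the calcium channel genes. Their medians were 0.13 and -0.14 on the log2 scale. Whether these families differ from the potassium channel genes was not tested.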

How the data were processed

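RNA-seq of 4 HAP1 libraries was used; the small RNA libraries were not analysed here. The authors deposited raw counts per gene symbol, 1 file per library. Per the submitters' processing notes the tools were FastQC, cutadapt, STAR, SAMtools, featureCounts and Subread, with hg38; versions, annotation and strand setting were not given in the sources used here. Per the labels' protocols, libraries were stranded total RNA.

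Counts were fitted in R 4.3.3 with edgeR 4.0.16: filterByExpr with minimum count 10 (16233 genes kept), TMM, robust quasi-likelihood F test, Benjamini-Hochberg over all tested genes, threshold 0.05. Called means past that threshold. The standard error is the fold change's size over the square root of F. CPM uses TMM-scaled library sizes, and values are listed for replicate 1, then 2. Ratios with 1 to 3 counts in a group carry exact 95% intervals, which like the floor of 3 counts cover counting error only. The fit was tested on simulated data. Alternatives were DESeq2 1.42.0, other scalings and filters, the date as a block, and leaving out each library.

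The series' design text calls the replicates biological, but whether they came from separate cultures is not stated, so the p-values reflect only how these libraries vary, which may be technical. Replicates differed by more than sampling noise (chi-square per degree of freedom 3.95 in wild-type and 4.69 in knockout). The dates in the labels pair the libraries; deviations at the 2 dates correlated at 0.08 between groups.

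Members and lists were chosen with earlier results of these data known. Named were every called member, the 2 with most counts per class, those at the 20-count limit, those with a log2 fold change of 1 or more that were not called (there were 0), called genes of other lists, or the 2 of smallest p; all other genes, including neighbours, were named after their values were seen. Positions came from RefSeq (GRCh38.p14), which matched 48 of 48 members and 87.6% of tested genes; neighbours are among the latter. A few genes that enter the counts and sums are not reported here by name.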

Additional observations from a re-analysis of the deposited data

How the results depend on the processing

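DESeq2 called 234 genes higher and 279 lower over all genes, and 1 and 3 among the potassium channel genes. With the replicate block on the date 767 genes were higher and 784 lower, and 6 and 6 potassium channel genes; KCNH2 was the only channel gene whose call it changed. With a minimum count of 30, which tests fewer genes, 460 genes were higher and 512 lower over all genes, and 4 and 2 channel genes. KCNJ12, KCNK9, KCNN2 and KCNQ5, lower in the main fit, were not tested in that one. Among the channel genes with 100 or more counts 5 were higher and 1 was lower in the main fit. Scaled by library size alone, the split over all genes was 374 higher and 644 lower against 497 and 568. Leaving out 1 library gave 240 to 684 higher and 340 to 705 lower over all genes, and 1 to 6 higher and 4 to 6 lower among channel genes; the lone library of a group was then assumed to vary like the others. The log2 ratio of summed CPM for calcium- and sodium-activated genes was -0.032 with median-ratio factors, -0.053 by library size and -1.15 without its top gene. Without theirs it was -0.26 for inward rectifiers, -0.31 for 2-pore genes (-0.19 by library size) and 0.028 for accessory genes. Directions near 0 flipped. KCNK5 went to -0.018 by library size and -0.0016 with a minimum count of 30, and ranged from -0.020 to 0.036 leaving out 1 library. On leaving out 1 library KCNK2 ranged from -0.075 to 0.0037, KCNIP3 from -0.036 to 0.175 and KCNJ4 from -0.177 to 0.031, with 0.0034 without knockout replicate 1. The cause of these changes was not tested where it is not named. KCNE3, KCNK1, KCND2 and BCDIN3D kept their call in all 10 alternatives.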

Other observations

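Below the limit of 20 counts, KCNJ3, a G-protein-gated inward rectifier, gave 3 and 11 counts in wild-type against 0 in both knockout libraries, and KCNT2, a sodium-activated channel, had 6 and 4 against 0. KCNJ2 and KCNK17 had 6 counts each, all in wild-type replicate 2, the deepest library. KCNA4 gave 1 and 0 counts in wild-type against 5 and 3 in knockout. These genes were picked after their values were seen and were not tested.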
